A study of Arabidopsis thaliana with 10 samples.

Results

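The genes described here make phenylpropanoids, flavonols and anthocyanins in Arabidopsis thaliana, with the MYB, bHLH and WD40 proteins known to control them. They are 35 loci chosen by pathway membership, from the phenylalanine ammonia-lyase (PAL) genes to the anthocyanin regulators, and all 35 were found among the 33557 genes of the deposited tables. Messenger RNA had been sequenced in whole seedlings aged 4 days, 2 biological replicates for each of 5 genotypes in the Columbia accession, all under constant blue light at 1 µmol m-2 s-1. The genotypes were the line labelled ubp12ubp13, named for the deubiquitinase genes UBP12 and UBP13, overexpressors of CRY2 (CRY2oe) and of UBP13 (UBP13oe), the mutant cry2-1 of the blue-light receptor gene CRY2, and wild type (WT). The promoters that drive the transgenes, the number of lines behind each overexpressor and the alleles of the ubp12ubp13 line are not given in the sources used here.

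Each gene has 1 value a library, in FPKM, which counts fragments per kilobase of transcript relative to all mapped fragments of the library, so that levels of different genes are compared per length. The depth, estimated from the steps between low values, lay between 15.9 M and 31.7 M fragments a library, so that 3 fragments on a transcript of 1 kb, the limit of counting alone, amount to 0.0946 to 0.189 FPKM. CRY2 stood at 84.0 and 87.7 FPKM in the libraries labelled ubp12ubp13, at 3923 and 3808 in CRY2oe, at 96.5 and 96.2 in UBP13oe, at 0 and 0.0187 in cry2-1 and at 109.8 and 120.0 in WT. UBP13 was at 24.2 and 23.6 FPKM in the libraries labelled ubp12ubp13 and at 69.0 and 66.1 in UBP13oe, against 27.1 and 28.3 in WT. UBP12 was at 397 FPKM in replicate 1 labelled ubp12ubp13, with a failed estimate in replicate 2, against 35.01 and 34.76 in WT, so transcript levels alone do not show loss of either gene and every direction below refers to the label. AT1G04410 and AT1G04420, the next gene models after CRY2, were at most 0.114 FPKM in the CRY2oe and cry2-1 libraries, against 435 and 443 FPKM and 32.0 and 30.3 FPKM in WT. CRY2oe and cry2-1 thus share the loss of these neighbouring transcripts, although CRY2 itself is high in CRY2oe. In the differences of either line from WT, the part of this loss cannot be told apart from that of CRY2.

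Phenylalanine is converted to p-coumaroyl-CoA by PAL, cinnamate 4-hydroxylase (C4H) and 4-coumarate CoA ligase (4CL), and this product feeds lignin, sinapate esters and flavonoids alike. Chalcone synthase (CHS) opens the flavonoid branch, chalcone isomerase (CHI) and the hydroxylases F3H and TT7 follow, and flavonol synthase (FLS1) makes flavonols, which sugar transferases then decorate. Anthocyanins need further steps from dihydroflavonol reductase (DFR) onward. In Arabidopsis seedlings, light induces CHS and its neighbours through cryptochromes and HY5, the flavonol MYBs (MYB11, MYB12 and MYB111) activate the early genes, and complexes of a MYB, a bHLH and TTG1 activate the late ones.

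On the log2(FPKM + 1) scale, the largest change against WT among the 24 genes tested was that of CHS in the libraries labelled ubp12ubp13, in CRY2oe and in cry2-1 alike. By the ratio of mean FPKM, MYB111 changed more than CHS in ubp12ubp13 and in cry2-1, from a WT mean of 0.048 FPKM, under the limit of counting. The other early flavonoid and flavonol genes moved with CHS in most cases. All 6 early genes (CHS, CHI, CHIL, F3H, TT7 and FLS1) were higher than in WT both in the libraries labelled ubp12ubp13, where 34.6% of all genes tested were called higher, and in CRY2oe, where 16.5% were. In cry2-1, with 11.8% of all genes called lower, 5 of the 6 were lower. The entry genes followed another order, with 8 of 9 higher in the libraries labelled ubp12ubp13 and 8 of 9 higher in UBP13oe (7 and 6 after rescaling), where 35.2% of all genes were called higher. The genes of the anthocyanin steps stayed below 1 FPKM in every library. Of the 35 genes, 24 reached 1 FPKM in at least 2 libraries and were tested, 16 reached 10 FPKM in at least 1 library, and 11 stayed below 1 FPKM throughout. The 4 comparisons against WT use the same 2 WT libraries.

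**Figure D1:**
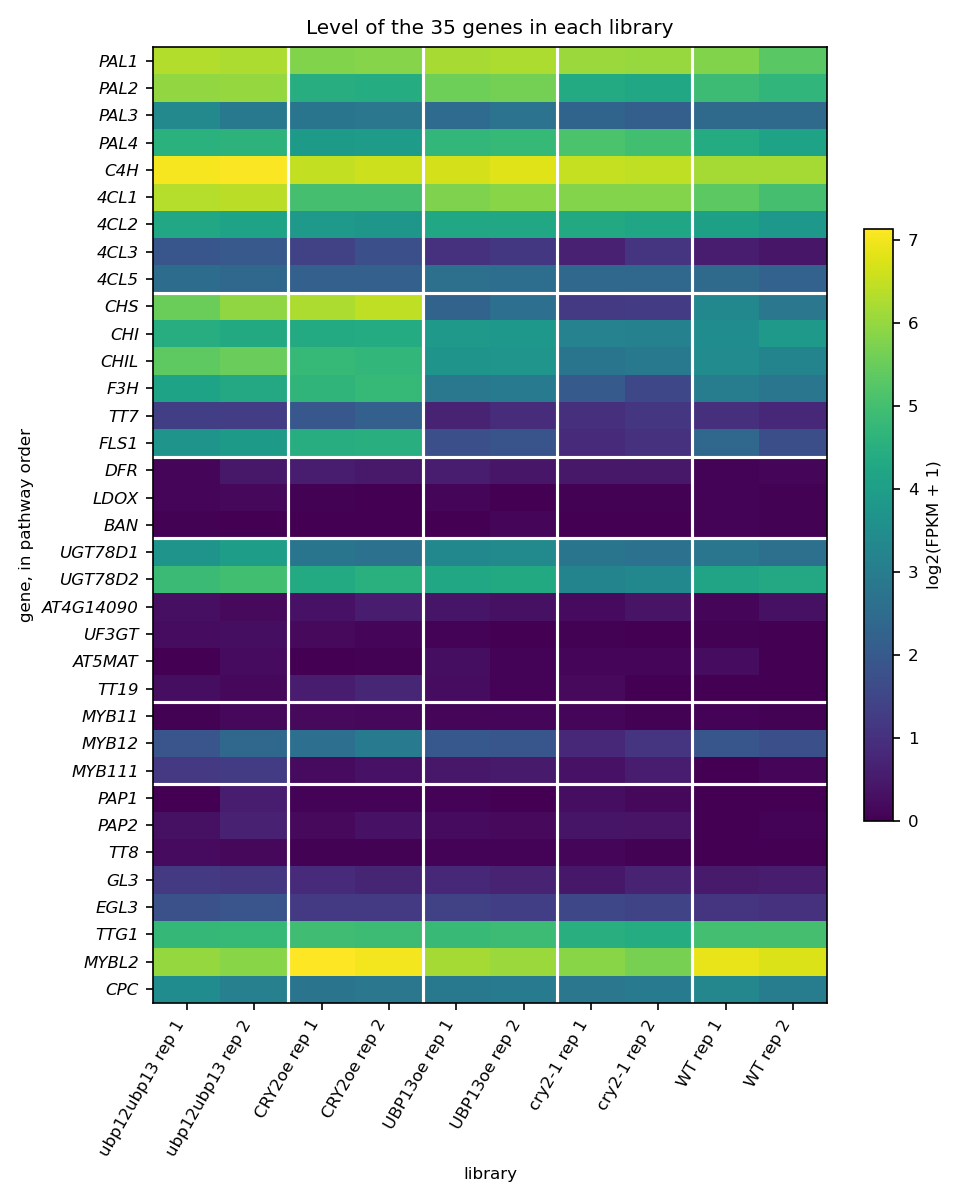
Level of each of the 35 genes (rows, in pathway order, white lines between steps) in each of the 10 libraries (columns), as log2(FPKM + 1). The early genes from CHS to FLS1 are brighter in the ubp12ubp13 and CRY2oe columns than in WT, and all of them but TT7 are darkest in cry2-1, while 11 genes from DFR to TT8 stay below 1 FPKM in all libraries.

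Differences were tested with limma on log2(FPKM + 1) over all genes that passed the same filter, and a gene was called at a Benjamini-Hochberg adjusted p under 0.05. Adding 1 FPKM makes the fold changes of genes near or below 1 FPKM smaller than the ratios of their FPKM. Of the 24 genes, 19 rose and 2 fell in the line labelled ubp12ubp13 (18 and 2 rescaled by the median of ratios), where 34.6% of all genes tested were called higher and 22.2% lower (26.9% and 29.2% rescaled). In CRY2oe 9 rose and 2 fell (9 and 4 rescaled), beside 16.5% of all genes called higher and 9.63% lower (10.4% and 15.7% rescaled). In UBP13oe 12 rose and 3 fell (8 and 4 rescaled), beside 35.2% of all genes called higher and 8.74% lower (17.2% and 19.8% rescaled). In cry2-1 7 rose and 10 fell (4 and 11 rescaled), beside 31.7% of all genes called higher and 11.8% lower (16.1% and 20.7% rescaled). MYB111 and GL3 reached 1 FPKM in the libraries labelled ubp12ubp13 alone, so the filter favoured a difference there, and without them 17 of 22 rose in that line. So many genes were called in each comparison that a share of called genes says little by itself, and the sizes below carry more. The median change of the 24 genes was 0.73 on the log2 scale in the libraries labelled ubp12ubp13, 0.25 in CRY2oe, 0.25 in UBP13oe and -0.11 in cry2-1, beside medians over all genes tested of 0.09, 0.05, 0.15 and 0.12 in the same order. The medians of the 24 genes include MYB111 and GL3, and none was computed without them. Rescaling brought the 4 medians over all genes to between -0.02 and 0.00. The calls higher in UBP13oe numbered 7 without UBP13oe replicate 1 and 6 without replicate 2, and those lower numbered 1 without UBP13oe replicate 1 or WT replicate 1. The calls lower in CRY2oe numbered 1 without CRY2oe replicate 1 or WT replicate 1, 0 without CRY2oe replicate 2 and 4 without WT replicate 2.

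**Figure D2:**
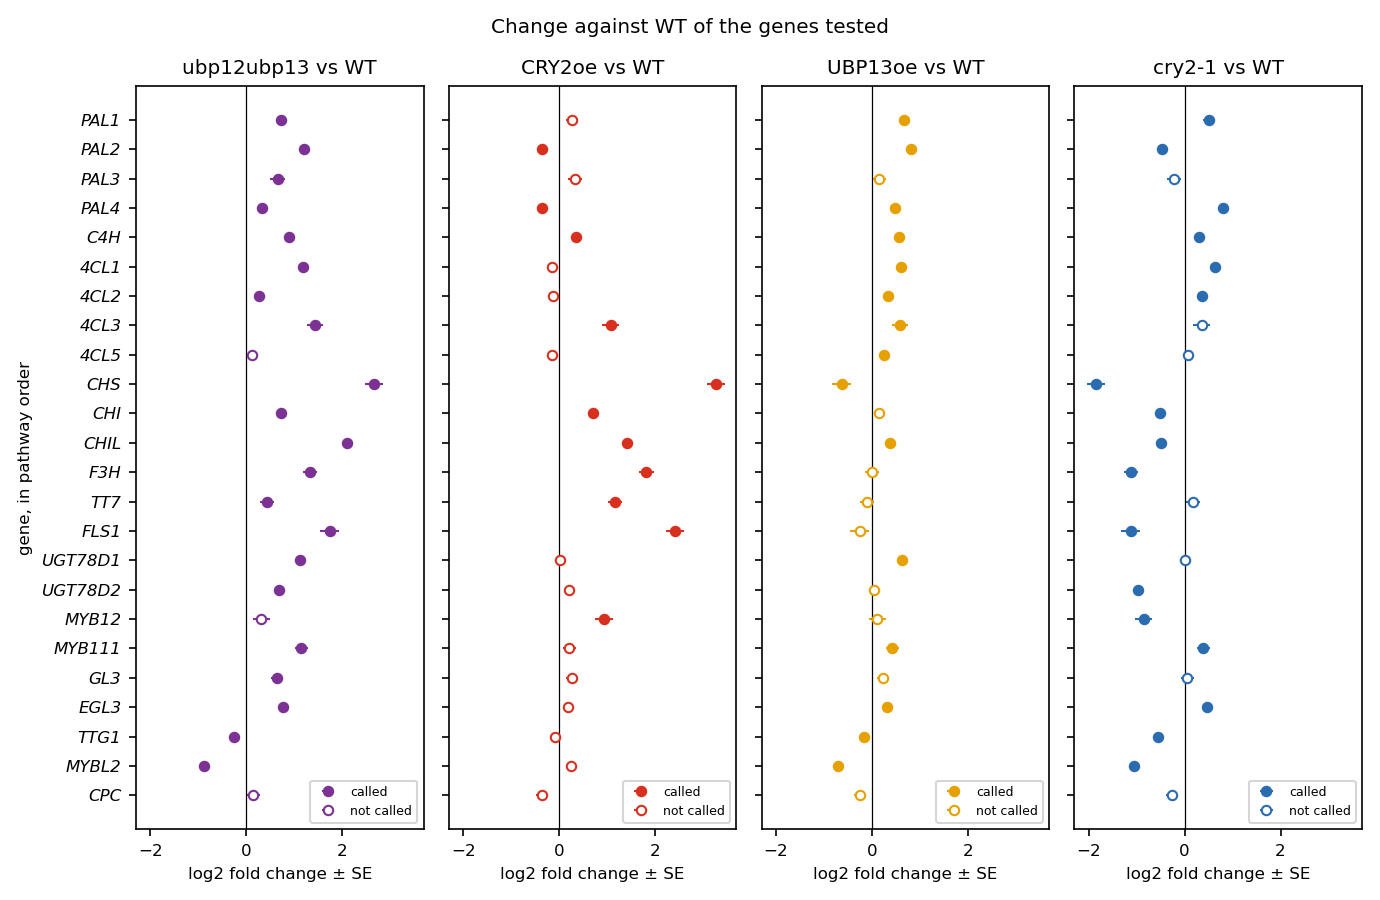
Log2 fold change against WT with its standard error (x axis) for the 24 genes tested (rows, in pathway order), 1 panel per genotype. Filled points passed an adjusted p of 0.05. Those of MYB111 and GL3 in ubp12ubp13 are not read as evidence, because both genes passed the filter through that line alone. The early genes lie right of 0 in ubp12ubp13 and CRY2oe, with CHS at 2.66 and 3.28, and left of 0 in cry2-1 apart from TT7, while most entry genes lie right of 0 in ubp12ubp13 and UBP13oe.

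Organ markers, a list chosen with results of these data known, moved with genotype in these whole seedlings. Of all genes tested, 34.6% were called higher in ubp12ubp13, 16.5% in CRY2oe, 35.2% in UBP13oe and 31.7% in cry2-1. The shares called lower were 22.2%, 9.63%, 8.74% and 11.8% in the same order. The 2 of 6 shoot markers higher in UBP13oe lay near the share of all genes. All 6 shoot markers (nuclear photosynthesis genes) rose in the libraries labelled ubp12ubp13, 5 rose in CRY2oe, 2 rose in UBP13oe and 2 fell in cry2-1, and their summed level was 43216 and 40973 FPKM in ubp12ubp13, 31693 and 30827 in CRY2oe, 25754 and 25308 in UBP13oe, 19842 and 21039 in cry2-1 and 23741 and 21864 in WT. Of 10 root markers, 4 rose and 6 fell in ubp12ubp13, 5 fell in CRY2oe, 7 rose in UBP13oe and 7 rose in cry2-1, with sums of 1972 and 1954 FPKM in ubp12ubp13, 1584 and 1664 in CRY2oe, 3084 and 3245 in UBP13oe, 2784 and 2585 in cry2-1 and 1953 and 1797 in WT. Their median log2 change was -0.65 in ubp12ubp13, -0.50 in CRY2oe, 0.50 in UBP13oe and 0.75 in cry2-1. In ubp12ubp13 the sum near that of WT thus hides changes in both directions. After rescaling the shoot markers gave 6 and 0, 3 and 0, 1 and 1, and 0 and 3 calls higher and lower in ubp12ubp13, CRY2oe, UBP13oe and cry2-1, and the root markers 3 and 6, 0 and 6, 6 and 0, and 7 and 1. None of these 16 markers was at 0 in any library. Of 8 seed markers, summing to between 5.97 and 38.9 FPKM, the storage protein genes CRU2 and CRU3 were at most 0.399 and 0.606 FPKM. Of the 6 seed markers tested, 1 rose and 1 fell in ubp12ubp13, 3 fell in CRY2oe, 5 fell in UBP13oe and 1 rose and 2 fell in cry2-1. The rise in cry2-1 was not called after rescaling, and the other counts of seed markers stayed the same. The part of these markers in the differences of the 35 genes was not tested, and in whole seedlings fewer cells of a type and less RNA per cell cannot be told apart. Plastid-encoded genes held 15.5% to 18.0% of all FPKM in the libraries of ubp12ubp13, CRY2oe and cry2-1, against 8.57% to 11.2% in those of UBP13oe and WT, and scaling to nuclear FPKM left the member counts against WT within 1.5 times of those given above.

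CHS (AT5G13930, chromosome 5, 4488688 to 4490264 on TAIR10), the first enzyme of the flavonoid branch, stood at 45.1 and 61.3 FPKM in the libraries labelled ubp12ubp13, 76.1 and 86.2 in CRY2oe, 3.85 and 5.13 in UBP13oe, 1.297 and 1.38 in cry2-1 and 9.00 and 6.14 in WT. All 5 genotypes were separate, in the order CRY2oe, ubp12ubp13, WT, UBP13oe and cry2-1. CHS rose in the libraries labelled ubp12ubp13 (log2 change 2.66 ± 0.19 SE, adjusted p = 1.24e-05 by limma) and in CRY2oe (3.28 ± 0.19 SE, adjusted p = 9.87e-05 by limma), and fell in cry2-1 (-1.86 ± 0.19 SE, adjusted p = 0.00021 by limma). The step between CRY2oe and cry2-1 measured 5.13 ± 0.19 (SE, adjusted p = 1.71e-06 by limma), the largest change of any of the 24 genes in the 8 comparisons made. CHS was also called lower in UBP13oe than in WT (-0.63 ± 0.19 SE, adjusted p = 0.0292 by limma), but not without UBP13oe replicate 1 or WT replicate 1. It was higher in UBP13oe than in cry2-1 (1.22 ± 0.19 SE, adjusted p = 0.00206 by limma). F3H and FLS1 showed the same order of the 5 means as CHS, although UBP13oe and WT were not distinguished for either of them.

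FLS1 (AT5G08640, chromosome 5, 2803957 to 2805606), which makes flavonols from dihydroflavonols, stood at 12.0 and 13.9 FPKM in the libraries labelled ubp12ubp13, 20.9 and 21.4 in CRY2oe, 2.34 and 2.60 in UBP13oe, 0.788 and 1.02 in cry2-1 and 4.27 and 2.26 in WT. It was high in both CRY2oe and ubp12ubp13 libraries, low in cry2-1, and the UBP13oe libraries fell between the 2 WT libraries. FLS1 rose in the libraries labelled ubp12ubp13 by 1.75 ± 0.20 (SE, adjusted p = 0.000137 by limma) and in CRY2oe by 2.42 ± 0.20 (SE, adjusted p = 0.000336 by limma) on the log2 scale, and its change in cry2-1 was -1.12 ± 0.20 (SE, adjusted p = 0.00249 by limma). F3H (AT3G51240, chromosome 3, 19025192 to 19026872), flavanone 3-hydroxylase, stood at 16.7 and 18.8 FPKM in the libraries labelled ubp12ubp13, 24.3 and 26.8 in CRY2oe, 6.19 and 6.79 in UBP13oe, 3.02 and 1.93 in cry2-1 and 7.08 and 5.93 in WT. Its levels in UBP13oe lay inside the range of WT, at a log2 change of -0.00 ± 0.15 (SE), while it changed by 1.32 ± 0.15 (SE, adjusted p = 0.000135 by limma) in the libraries labelled ubp12ubp13, by 1.82 ± 0.15 (SE, adjusted p = 0.000338 by limma) in CRY2oe and by -1.12 ± 0.15 (SE, adjusted p = 0.000659 by limma) in cry2-1. F3H overlaps AT3G51238 over 1588 bases in the files, a locus at no more than 0.483 FPKM, and CHS shares 2 bases with AT5G13940, at no more than 0.0217 FPKM. Strand use in the counting was not stated in the labels.

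CHI (AT3G55120, chromosome 3, 20430114 to 20431470), chalcone isomerase, stood at 20.9 and 19.1 FPKM in the libraries labelled ubp12ubp13, 19.4 and 20.0 in CRY2oe, 13.2 and 12.9 in UBP13oe, 7.93 and 7.75 in cry2-1 and 10.2 and 13.3 in WT. The libraries labelled ubp12ubp13 and those of CRY2oe overlapped, with a difference of 0.02 ± 0.10 (SE) on the log2 scale that was not called, and UBP13oe overlapped WT. CHI rose by 0.73 ± 0.10 (SE, adjusted p = 0.000528 by limma) in the libraries labelled ubp12ubp13 and by 0.71 ± 0.10 (SE, adjusted p = 0.003 by limma) in CRY2oe, and fell in cry2-1 (log2 change -0.52 ± 0.10 SE, adjusted p = 0.00497 by limma). CHIL (AT5G05270, chromosome 5, 1563320 to 1565007), a chalcone isomerase-like protein that raises flux into flavonoids without being an isomerase itself, stood at 40.1 and 44.8 FPKM in the libraries labelled ubp12ubp13, 26.6 and 25.5 in CRY2oe, 11.9 and 12.3 in UBP13oe, 5.90 and 6.38 in cry2-1 and 9.92 and 8.32 in WT. CHIL was highest in both libraries labelled ubp12ubp13 and lowest in both of cry2-1, with no overlap between any 2 genotypes. It rose by 2.11 ± 0.09 (SE, adjusted p = 9.20e-07 by limma) in the libraries labelled ubp12ubp13 and by 1.42 ± 0.09 (SE, adjusted p = 0.000115 by limma) in CRY2oe, and changed by -0.50 ± 0.09 (SE, adjusted p = 0.0025 by limma) in cry2-1. The smaller rise of CHIL in UBP13oe (0.37 ± 0.09 SE, adjusted p = 0.00992 by limma) was not called after rescaling or without UBP13oe replicate 2.

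TT7 (AT5G07990, chromosome 5, 2560394 to 2563109), the flavonoid 3'-hydroxylase that adds the hydroxyl group separating quercetin from kaempferol, was the weakest of the 6, at 1.53 and 1.47 FPKM in the libraries labelled ubp12ubp13, 2.80 and 3.54 in CRY2oe, 0.592 and 0.881 in UBP13oe, 0.977 and 1.20 in cry2-1 and 0.976 and 0.739 in WT. Only in CRY2oe were both libraries far above all others, and cry2-1 did not lie below WT. TT7 rose in CRY2oe (log2 change 1.16 ± 0.14 SE, adjusted p = 0.00151 by limma). Its rise in the libraries labelled ubp12ubp13 was 0.43 ± 0.14 (SE, adjusted p = 0.0288 by limma) and ended without either of their replicates or WT replicate 2. In cry2-1 TT7 was not called (0.17 ± 0.14, SE).

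**Figure D3:**
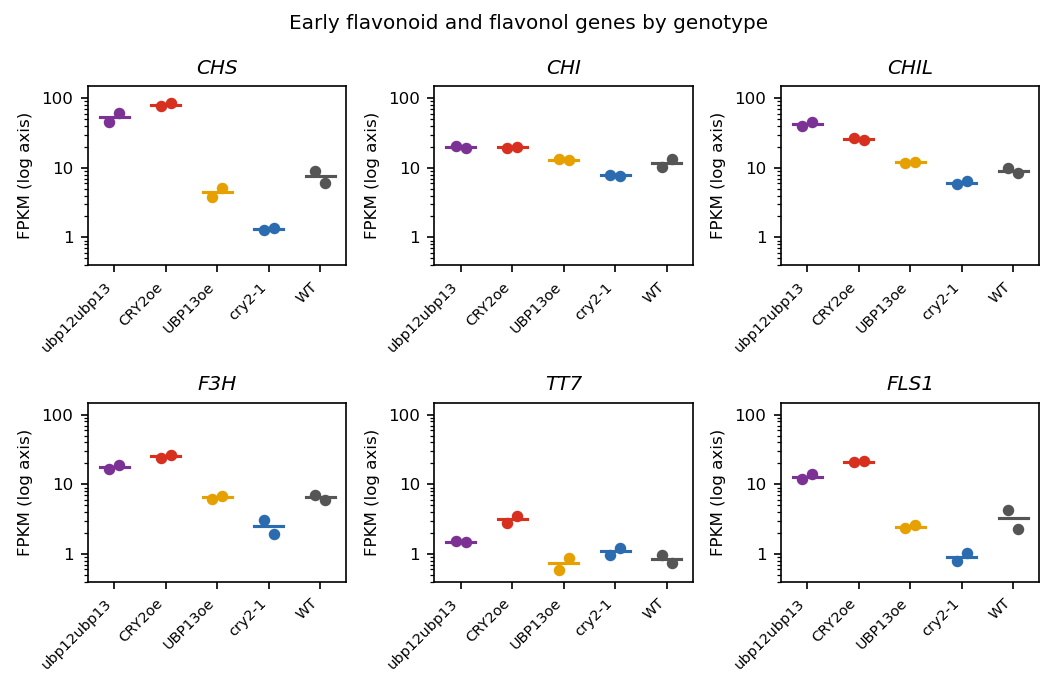
FPKM of the 6 early flavonoid and flavonol genes in each library (log y axis, the same in all panels), by genotype; points are libraries and horizontal lines the mean of 2. CHS spans the widest range, between 1.297 FPKM in cry2-1 and 86.2 FPKM in CRY2oe, and TT7 is the lowest gene, with 3.54 FPKM as its highest value.

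The sequence before these genes is shown because light-regulated flavonoid promoters are known to combine G-boxes or other ACGT-core elements, which HY5 and related bZIP proteins bind, with AC elements, which MYB proteins bind. The 250 bases before the RefSeq start (assembly TAIR10.1, sequence credited to RefSeq) are printed 5′ to 3′ on the strand of the gene, with capitals marking every ACGT core, G-boxes (CACGTG) among them, and every AC element (ACCNANC) on either strand. All 6 genes called higher in CRY2oe and lower in cry2-1 are shown, namely CHS (chr5:4488226-4488475 on the plus strand), CHI (chr3:20431598-20431847 on the minus strand), CHIL (chr5:1563036-1563285 on the plus strand), F3H (chr3:19024942-19025191 on the plus strand), FLS1 (chr5:2803583-2803832 on the plus strand) and the regulator MYB12 (chr2:19476076-19476325 on the plus strand). UGT78D1 (chr1:10814362-10814611 on the plus strand) is shown as 1 of the 5 tested genes called in neither.
CHS: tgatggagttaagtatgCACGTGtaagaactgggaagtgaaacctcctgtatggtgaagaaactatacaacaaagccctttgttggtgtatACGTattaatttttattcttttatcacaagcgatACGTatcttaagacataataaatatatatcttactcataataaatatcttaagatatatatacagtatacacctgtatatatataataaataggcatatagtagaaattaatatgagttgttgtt
CHI: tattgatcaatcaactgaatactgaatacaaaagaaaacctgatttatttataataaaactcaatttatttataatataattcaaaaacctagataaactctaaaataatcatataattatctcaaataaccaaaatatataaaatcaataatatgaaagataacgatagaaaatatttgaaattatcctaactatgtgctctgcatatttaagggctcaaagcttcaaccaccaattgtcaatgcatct
CHIL: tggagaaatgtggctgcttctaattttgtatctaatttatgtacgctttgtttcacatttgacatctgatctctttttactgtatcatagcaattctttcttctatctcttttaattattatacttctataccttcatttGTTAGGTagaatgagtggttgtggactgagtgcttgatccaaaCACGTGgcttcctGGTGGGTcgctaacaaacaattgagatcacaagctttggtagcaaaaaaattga
F3H: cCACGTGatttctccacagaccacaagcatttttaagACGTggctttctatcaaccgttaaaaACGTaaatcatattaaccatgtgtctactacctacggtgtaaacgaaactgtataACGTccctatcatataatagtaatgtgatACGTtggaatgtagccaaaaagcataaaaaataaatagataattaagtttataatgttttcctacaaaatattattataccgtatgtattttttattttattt
FLS1: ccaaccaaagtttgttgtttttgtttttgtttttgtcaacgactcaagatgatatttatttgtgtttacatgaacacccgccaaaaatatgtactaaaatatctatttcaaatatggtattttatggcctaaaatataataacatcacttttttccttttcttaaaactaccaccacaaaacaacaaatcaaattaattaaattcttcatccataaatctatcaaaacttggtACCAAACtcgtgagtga
MYB12: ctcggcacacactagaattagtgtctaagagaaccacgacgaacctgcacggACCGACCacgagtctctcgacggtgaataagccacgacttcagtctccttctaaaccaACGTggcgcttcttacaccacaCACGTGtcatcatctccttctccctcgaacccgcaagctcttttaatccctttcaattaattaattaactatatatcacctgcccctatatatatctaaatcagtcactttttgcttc
UGT78D1: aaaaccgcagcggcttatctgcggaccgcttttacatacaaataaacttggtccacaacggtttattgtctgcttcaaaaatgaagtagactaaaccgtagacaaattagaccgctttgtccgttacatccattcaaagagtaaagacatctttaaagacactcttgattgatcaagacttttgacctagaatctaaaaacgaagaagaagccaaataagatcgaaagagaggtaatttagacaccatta
The promoters of CHS, F3H, CHIL and MYB12 each held 1 G-box, with its first base at -233, -249, -67 and -118 from the start. F3H held 5 ACGT cores (the G-box included) and no AC element, CHIL held AC elements at -110 and -54 on the opposite strand, and FLS1 held no ACGT core and 1 AC element at -17. CHI, which changed like CHS in direction, and UGT78D1 held none of these letters in this window. With the 50 bases after the RefSeq start added, CHI held 1 G-box and FLS1 held 1 ACGT core. Of the other 4 genes called in neither line, PAL3 held 1 ACGT core, 4CL5 held 2, and GL3 and CPC held none of these motifs. PAL4, called lower in CRY2oe and higher in cry2-1, held 1 G-box and 1 AC element. The RefSeq start is the same base as in the files for 5 of the 35 genes and lies upstream of it for the others. Counted from the start in the files, the CHS window of 250 bases before to 50 after held no G-box, 1 ACGT core and 3 AC elements.

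Over windows of 250 bases before to 50 after the RefSeq start, searched on both strands, 10 of the 35 promoters held CACGTG (28.6%), against 2107 of 27443 promoters in all (7.68%). ACCNANC was in 25 of the 35 (71.4%), against 32.6% of all promoters. ACGT was in 23 (65.7%), against 49.9%, and every CACGTG is counted in it. CANNTG, the E-box that bHLH proteins bind and that includes CACGTG, was in 20 (57.1%), against 61.7%. At the starts in the files the G-box was in 10 of the 35 (28.6%) against 8.15% of 26686 promoters, and ACCNANC in 26 (74.3%) against 34.0%. A match is a description of letters and not of binding. Among the holders of a G-box were genes that stayed below 1 FPKM, namely DFR, BAN, PAP2 and UF3GT, and the others were CHS, CHI, CHIL, F3H, MYB12 and PAL4.

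The entry genes were highest in the libraries labelled ubp12ubp13 for most members. Of the 9, 7 were called higher there than in CRY2oe (6 rescaled), beside 26.4% of all genes (24.7% rescaled). Of 9 entry genes, 8 rose in the libraries labelled ubp12ubp13 (all but 4CL5), 2 rose and 2 fell in CRY2oe, 8 rose in UBP13oe (all but PAL3), and 5 rose and 1 fell in cry2-1. In the same order, 34.6%, 16.5%, 35.2% and 31.7% of all genes were called higher, and 22.2%, 9.63%, 8.74% and 11.8% lower. The 2 of 9 higher in CRY2oe lay near the share of all genes. After rescaling the counts of entry genes were 7 and 0, 2 and 2, 6 and 0, and 3 and 1. The rescaled shares of all genes were 26.9% and 29.2%, 10.4% and 15.7%, 17.2% and 19.8%, and 16.1% and 20.7%. PAL2 (AT3G53260, chromosome 3, 19744051 to 19746780), 1 of 4 PAL genes, stood at 62.7 and 63.7 FPKM in the libraries labelled ubp12ubp13, 21.0 and 20.5 in CRY2oe, 46.7 and 49.6 in UBP13oe, 19.8 and 18.4 in cry2-1 and 28.8 and 24.9 in WT. No 2 genotypes overlapped, and CRY2oe and cry2-1 lay close together below WT. PAL2 rose in the libraries labelled ubp12ubp13 (log2 change 1.21 ± 0.07 SE, adjusted p = 4.34e-06 by limma) and in UBP13oe (0.82 ± 0.07 SE, adjusted p = 0.00016 by limma), and fell in cry2-1 (-0.47 ± 0.07 SE, adjusted p = 0.00128 by limma) and in CRY2oe (-0.35 ± 0.07 SE, adjusted p = 0.0101 by limma). The call in CRY2oe ended without CRY2oe replicate 2.

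PAL4 (AT3G10340, chromosome 3, 3204013 to 3208022) stood at 22.7 and 23.4 FPKM in the libraries labelled ubp12ubp13, 13.9 and 14.0 in CRY2oe, 25.3 and 26.5 in UBP13oe, 33.6 and 30.7 in cry2-1 and 19.9 and 16.5 in WT. Here cry2-1 was highest and CRY2oe lowest, and all 5 genotypes were separate. PAL4 rose in cry2-1 by 0.79 ± 0.08 (SE, adjusted p = 0.000212 by limma) on the log2 scale, in UBP13oe by 0.49 ± 0.08 (SE, adjusted p = 0.00228 by limma) and in the libraries labelled ubp12ubp13 by 0.33 ± 0.08 (SE, adjusted p = 0.00931 by limma). It was called lower in CRY2oe (-0.35 ± 0.08 SE, adjusted p = 0.0176 by limma), a call that ended without either CRY2oe replicate or WT replicate 1. Between CRY2oe and cry2-1 the difference was -1.14 ± 0.08 (SE, adjusted p = 2.92e-05 by limma). PAL1, the most abundant PAL gene, ranged between 39.2 FPKM in WT and 78.4 FPKM in the libraries labelled ubp12ubp13, with rises of 0.73 ± 0.12, 0.68 ± 0.12 and 0.51 ± 0.12 (SE) in ubp12ubp13, UBP13oe and cry2-1, the last not called after rescaling or without cry2-1 replicate 1. PAL3 was at most 9.25 FPKM and rose in the libraries labelled ubp12ubp13 (0.65 ± 0.15 SE, adjusted p = 0.00588 by limma).

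C4H (AT2G30490), the single cinnamate 4-hydroxylase gene, was the most abundant of the entry genes, at 132 and 136 FPKM in the libraries labelled ubp12ubp13, 88.3 and 95.1 in CRY2oe, 102 and 109.6 in UBP13oe, 89.6 and 87.0 in cry2-1 and 71.3 and 71.7 in WT. All 4 other genotypes lay above WT, and the libraries labelled ubp12ubp13 above all of them. C4H rose by 0.90 ± 0.05 (SE, adjusted p = 4.25e-06 by limma) in the libraries labelled ubp12ubp13, by 0.35 ± 0.05 in CRY2oe, by 0.56 ± 0.05 in UBP13oe and by 0.30 ± 0.05 in cry2-1. 4CL1 (AT1G51680, chromosome 1, 19158752 to 19161552), a ligase of the general pathway, stood at 80.3 and 83.4 FPKM in the libraries labelled ubp12ubp13, 31.8 and 31.9 in CRY2oe, 52.7 and 57.0 in UBP13oe, 55.7 and 54.9 in cry2-1 and 39.4 and 32.0 in WT. Both libraries labelled ubp12ubp13 stood apart above the rest, UBP13oe and cry2-1 overlapped, and CRY2oe lay just below the lower WT library. 4CL1 rose in the libraries labelled ubp12ubp13 (1.18 ± 0.09 SE, adjusted p = 1.22e-05 by limma), in UBP13oe (0.61 ± 0.09 SE, adjusted p = 0.00103 by limma) and in cry2-1 (0.62 ± 0.09 SE, adjusted p = 0.000766 by limma).

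4CL3 (AT1G65060, chromosome 1, 24167202 to 24171502), the ligase associated with flavonoid synthesis, stood at 2.73 and 2.97 FPKM in the libraries labelled ubp12ubp13, 1.67 and 2.36 in CRY2oe, 1.02 and 1.24 in UBP13oe, 0.563 and 1.10 in cry2-1 and 0.493 and 0.352 in WT. Unlike 4CL1 it was high in both ubp12ubp13 and CRY2oe libraries, though at no more than 2.97 FPKM. It rose by 1.44 ± 0.17 (SE, adjusted p = 0.00019 by limma) in the libraries labelled ubp12ubp13 and by 1.08 ± 0.17 (SE, adjusted p = 0.00411 by limma) in CRY2oe. Its rise in UBP13oe (0.58 ± 0.17 SE, adjusted p = 0.0255 by limma) ended without either UBP13oe replicate or WT replicate 2. 4CL2 ranged between 12.7 and 19.4 FPKM and was called higher in the libraries labelled ubp12ubp13, UBP13oe and cry2-1 by between 0.26 and 0.36 on the log2 scale, none of which was called after rescaling. Those calls also ended without WT replicate 2, and without ubp12ubp13 replicate 1, either UBP13oe replicate or cry2-1 replicate 1 in their own comparisons. 4CL5, at most 5.27 FPKM, was called higher in UBP13oe alone (0.26 ± 0.09 SE, adjusted p = 0.0485 by limma), a call kept only without WT replicate 1 among the 10 libraries left out in turn. Members of the PAL and 4CL families are similar in sequence, and the labels do not state how shared fragments were assigned between them.

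**Figure D4:**
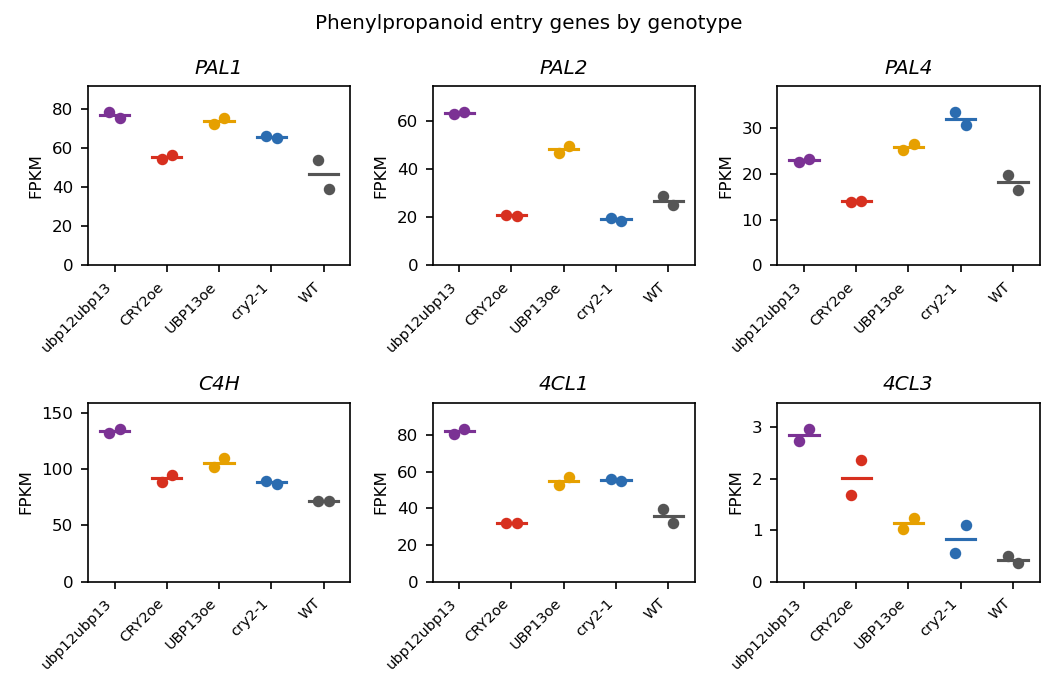
FPKM of 6 phenylpropanoid entry genes in each library (y axis from 0), by genotype; points are libraries and horizontal lines the mean of 2. PAL2 and 4CL1 are highest in ubp12ubp13 and near or below WT in CRY2oe, PAL4 is highest in cry2-1, and 4CL3 is raised in ubp12ubp13 and CRY2oe.

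The libraries labelled ubp12ubp13 and CRY2oe were also compared directly, since both were above WT for the early genes. Of the 24 genes, 14 were higher in ubp12ubp13 and 7 lower (12 and 7 rescaled), beside 26.4% of all genes called higher and 23.5% lower (24.7% and 25.8% rescaled). Without MYB111 and GL3, 12 of 22 were higher. Those higher included PAL2 (1.56 ± 0.07 SE, adjusted p = 2.16e-06 by limma), 4CL1 (1.33 ± 0.09 SE, adjusted p = 9.62e-06 by limma), and with them PAL1, PAL4, C4H, 4CL2 and 4CL5. The PAL1 call ended without CRY2oe replicate 1 or ubp12ubp13 replicate 1, and that of 4CL5 without any of the 4 libraries compared. CHIL was higher by 0.68 ± 0.09 (SE, adjusted p = 0.000378 by limma). CHS, F3H and FLS1 differed by between -0.67 and -0.50 on the log2 scale, and each of these calls ended without either CRY2oe replicate or ubp12ubp13 replicate 1. TT7 differed by -0.73 ± 0.14 (SE, adjusted p = 0.00306 by limma). The calls lower numbered 3 without either CRY2oe replicate and 2 without ubp12ubp13 replicate 1.

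In the comparison of CRY2oe with cry2-1, 12 of the 24 genes were higher and 3 lower (12 and 3 rescaled), beside 13.5% of all genes called higher and 24.0% lower (17.4% and 17.1% rescaled). All 6 early genes were among those higher, with F3H at 2.95 ± 0.15 (SE, adjusted p = 5.93e-06 by limma), FLS1 at 3.54 ± 0.20 (SE, adjusted p = 8.38e-06 by limma) and CHIL at 1.92 ± 0.09 (SE, adjusted p = 3.92e-06 by limma), and the 3 lower were PAL4, 4CL1 and 4CL2. In the comparison of ubp12ubp13 with UBP13oe, 17 were higher and 0 lower by limma (17 and 0 rescaled), beside 20.8% of all genes called higher and 32.1% lower (25.2% and 27.0% rescaled). Without MYB111 and GL3, 15 of 22 were higher. At an unadjusted p under 0.05, 0 of the 24 were lower there, and 1 was called lower without either WT replicate. CHS differed there by 3.30 ± 0.19 (SE, adjusted p = 7.18e-06 by limma) and CHIL by 1.73 ± 0.09 (SE, adjusted p = 3.98e-06 by limma). In the comparison of UBP13oe with cry2-1, 12 were higher and 1, PAL4, was lower (12 and 1 rescaled), beside 17.2% of all genes called higher and 11.8% lower (15.9% and 13.1% rescaled). PAL2 led with 1.29 ± 0.07 (SE, adjusted p = 9.80e-06 by limma), followed by CHS and F3H (1.12 ± 0.15 SE, adjusted p = 0.000835 by limma). The PAL4 call ended without cry2-1 replicate 1 or either UBP13oe replicate, and that of FLS1 (0.87 ± 0.20 SE, adjusted p = 0.0122 by limma) without cry2-1 replicate 1 or UBP13oe replicate 2.

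The flavonol glycosyltransferases differed from each other. UGT78D1 (AT1G30530, chromosome 1, 10814659 to 10816583), which adds rhamnose to flavonols, stood at 12.1 and 14.7 FPKM in the libraries labelled ubp12ubp13, 5.89 and 5.50 in CRY2oe, 9.01 and 9.50 in UBP13oe, 5.84 and 5.42 in cry2-1 and 6.03 and 5.21 in WT. The CRY2oe, cry2-1 and WT libraries overlapped, and those of UBP13oe and ubp12ubp13 lay above them. UGT78D1 rose in the libraries labelled ubp12ubp13 (log2 change 1.12 ± 0.10 SE, adjusted p = 4.50e-05 by limma) and in UBP13oe (0.63 ± 0.10 SE, adjusted p = 0.00193 by limma), while the change was 0.02 ± 0.10 in CRY2oe and 0.00 ± 0.10 in cry2-1 (SE). Set directly against CRY2oe, ubp12ubp13 was higher by 1.10 ± 0.10 (SE, adjusted p = 6.87e-05 by limma). UGT78D2 (AT5G17050, chromosome 5, 5607788 to 5609492), which adds glucose to flavonols and anthocyanidins, stood at 28.3 and 30.6 FPKM in the libraries labelled ubp12ubp13, 19.6 and 22.3 in CRY2oe, 18.0 and 19.2 in UBP13oe, 8.32 and 8.98 in cry2-1 and 17.1 and 18.8 in WT. Here cry2-1 lay far below all others and ubp12ubp13 above. UGT78D2 rose in the libraries labelled ubp12ubp13 (0.68 ± 0.08 SE, adjusted p = 0.000189 by limma) and fell in cry2-1 (-0.97 ± 0.08 SE, adjusted p = 8.10e-05 by limma). In UBP13oe and CRY2oe it was not called, with changes of 0.05 ± 0.08 and 0.21 ± 0.08 (SE).

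The flavonol MYBs followed different genotypes. MYB12 (AT2G47460, chromosome 2, 19476337 to 19479478) stood at 2.72 and 4.21 FPKM in the libraries labelled ubp12ubp13, 5.09 and 6.50 in CRY2oe, 2.89 and 2.75 in UBP13oe, 0.772 and 1.14 in cry2-1 and 2.75 and 2.33 in WT. CRY2oe lay above all other libraries, cry2-1 below all others, and the libraries labelled ubp12ubp13 overlapped those of UBP13oe and WT. MYB12 rose in CRY2oe (log2 change 0.94 ± 0.18 SE, adjusted p = 0.00823 by limma), a call that ended without CRY2oe replicate 2, and fell in cry2-1 (-0.86 ± 0.18 SE, adjusted p = 0.00574 by limma). In the libraries labelled ubp12ubp13 its change was 0.32 ± 0.18 (SE, adjusted p = 0.161 by limma). Between CRY2oe and cry2-1 MYB12 differed by 1.80 ± 0.18 (SE, adjusted p = 0.000147 by limma).

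MYB111 (AT5G49330, chromosome 5, 19998952 to 20001378) stood at 1.25 and 1.38 FPKM in the libraries labelled ubp12ubp13, 0.165 and 0.261 in CRY2oe, 0.379 and 0.443 in UBP13oe, 0.269 and 0.488 in cry2-1 and 0 and 0.0963 in WT. It exceeded 1 FPKM in the libraries labelled ubp12ubp13 alone, and the WT values lie near or under the level of 3 fragments on 1 kb. It passed the filter through those libraries alone, so no test of their difference from the others is given. The calls of MYB111 in UBP13oe (0.43 ± 0.14 SE, adjusted p = 0.0333 by limma) and in cry2-1 (0.39 ± 0.14 SE, adjusted p = 0.0471 by limma) ended, the first without any 1 of the UBP13oe or WT libraries and the second without any 1 of the 10 libraries. MYB11 was at most 0.140 FPKM.

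MYBL2 (AT1G71030, chromosome 1, 26795123 to 26796364), an R3-type MYB protein that represses anthocyanin genes, was the most abundant regulator, at 64.0 and 57.2 FPKM in the libraries labelled ubp12ubp13, 140.1 and 127 in CRY2oe, 71.7 and 66.0 in UBP13oe, 57.6 and 49.98 in cry2-1 and 118 and 107 in WT. CRY2oe lay highest, WT next, and the other 3 genotypes well below both. MYBL2 fell in the libraries labelled ubp12ubp13 (log2 change -0.88 ± 0.09 SE, adjusted p = 9.01e-05 by limma), in UBP13oe (-0.70 ± 0.09 SE, adjusted p = 0.000823 by limma) and in cry2-1 (-1.05 ± 0.09 SE, adjusted p = 9.57e-05 by limma). In CRY2oe the change was 0.25 ± 0.09 (SE, adjusted p = 0.0829 by limma), not called. The difference between ubp12ubp13 and CRY2oe was -1.13 ± 0.09 (SE, adjusted p = 3.34e-05 by limma).

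TTG1, the WD40 protein shared by the complexes for pigment, trichomes and root hairs, ranged between 20.4 FPKM in cry2-1 and 31.5 FPKM in WT. It fell by 0.25 on the log2 scale in the libraries labelled ubp12ubp13, by 0.17 in UBP13oe and by 0.56 in cry2-1 (adjusted p = 0.00292, 0.0271 and 0.000105 by limma), the call in UBP13oe ending without UBP13oe replicate 1 or either WT replicate. EGL3 and GL3 are bHLH partners of the MYBs. EGL3 reached 2.68 FPKM at most, in the libraries labelled ubp12ubp13, and rose there by 0.78 ± 0.10 (SE, adjusted p = 0.00027 by limma) and in cry2-1 by 0.46 ± 0.10 (SE, adjusted p = 0.00654 by limma). GL3 was at 1.329 and 1.174 FPKM there and at no more than 0.826 FPKM in the other 8 libraries, and no test is given because it passed the filter through the libraries labelled ubp12ubp13 alone. A smaller rise of EGL3 in UBP13oe (0.31 ± 0.10 SE, adjusted p = 0.0336 by limma) was not called after rescaling or without any of the UBP13oe, CRY2oe and WT libraries in turn. CPC, an R3 MYB that competes with them in the root epidermis, was called in no comparison against WT as deposited, and was called lower in UBP13oe, CRY2oe and cry2-1 after rescaling.

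**Figure D5:**
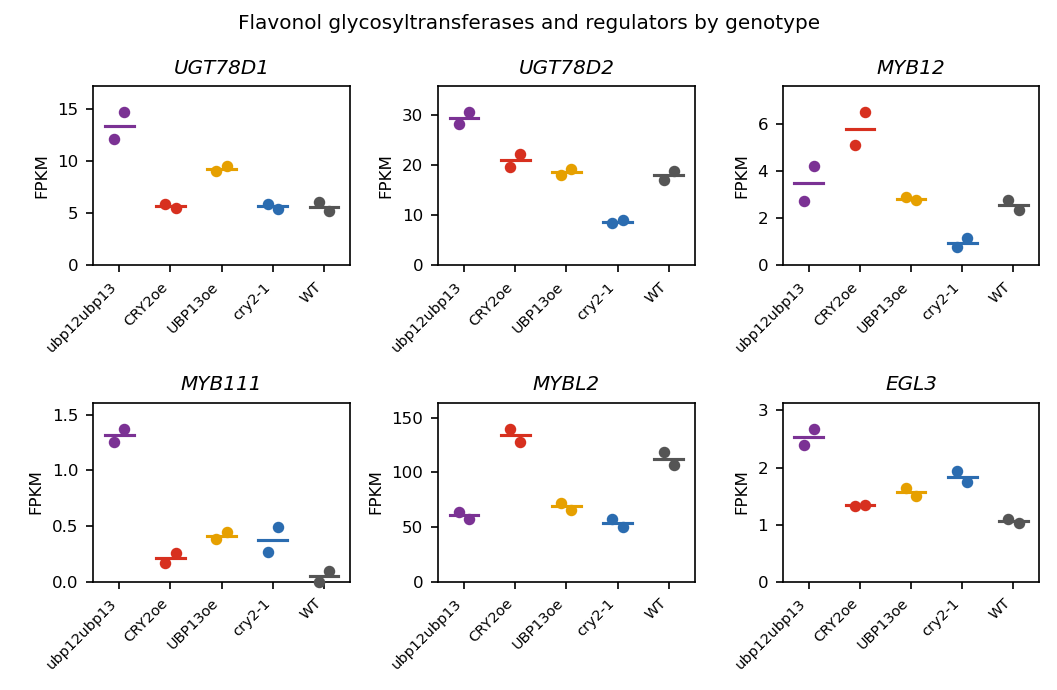
FPKM of 2 flavonol glycosyltransferases and 4 regulators in each library (y axis from 0), by genotype; points are libraries and horizontal lines the mean of 2. MYB12 is highest in CRY2oe and lowest in cry2-1, MYB111 exceeds 1 FPKM in ubp12ubp13 alone, and MYBL2 is low in ubp12ubp13, UBP13oe and cry2-1.

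The genes specific to anthocyanins and proanthocyanidins were barely detected. DFR, the first of these steps, was at 0.0686 and 0.384 FPKM in the libraries labelled ubp12ubp13, 0.475 and 0.406 in CRY2oe, 0.475 and 0.340 in UBP13oe, 0.386 and 0.367 in cry2-1 and 0.0419 and 0.0615 in WT. Both WT libraries and replicate 1 labelled ubp12ubp13 lay under the level of 3 fragments on 1 kb, and the other 7 libraries above it. LDOX and BAN, dioxygenase and reductase of the following steps, were at most 0.120 and 0.0641 FPKM. TT19, a glutathione transferase needed for anthocyanin transport, was at 0.208 and 0.111 FPKM in the libraries labelled ubp12ubp13, 0.448 and 0.695 in CRY2oe, 0.169 and 0.0572 in UBP13oe, 0.130 and 0 in cry2-1 and 0 in both WT libraries. CRY2oe lay above all other libraries. The anthocyanin MYB genes PAP1 and PAP2 and the bHLH gene TT8 were at most 0.447, 0.568 and 0.146 FPKM. The sugar and acyl transferase genes AT4G14090, UF3GT and AT5MAT were at most 0.451, 0.197 and 0.197 FPKM. AT4G14090 shares 230 bases with AT4G14100, which was at 25.8 to 33.4 FPKM, so part of its value may belong to that gene. Neither these 10 genes nor MYB11 passed the filter. In the fit with no filter, TT19 was called higher in CRY2oe than in WT (0.65 ± 0.10 SE, adjusted p = 0.018 by limma), and PAP2, UF3GT and TT8 were called higher in ubp12ubp13 than in WT by 0.18 to 0.46 on the log2 scale, while DFR was called in none of the 8 comparisons (CRY2oe, 0.45 ± 0.12 SE, adjusted p = 0.0728 by limma). These changes are at levels where a few fragments decide the value, and their size depends on the 1 FPKM added.

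The neighbouring branches were described by lists, chosen with results of these data known. Each is to be read against the shares of all genes called given above. Of 10 genes of the lignin branch, 8 rose and 1 fell in the line labelled ubp12ubp13, 1 rose and 3 fell in CRY2oe, 8 rose in UBP13oe and 4 rose and 3 fell in cry2-1, with medians of 0.59, -0.06, 0.38 and 0.03 on the log2 scale. After rescaling, 7 rose and 1 fell, 0 rose and 4 fell, 5 rose and 1 fell, and 4 rose and 4 fell, in the same order. HCT, the shikimate transferase that opens this branch, was at 106 and 106 FPKM in the libraries labelled ubp12ubp13, 63.1 and 63.2 in CRY2oe, 95.8 and 97.1 in UBP13oe, 91.6 and 90.6 in cry2-1 and 75.2 and 76.2 in WT. It was separate in all 5 genotypes, with CRY2oe below WT, and rose by 0.48 ± 0.03 (SE, adjusted p = 1.10e-05 by limma) in the libraries labelled ubp12ubp13 and changed by -0.26 ± 0.03 (SE, adjusted p = 0.00203 by limma) in CRY2oe. CAD4, a cinnamyl alcohol dehydrogenase of the last step, rose in the libraries labelled ubp12ubp13 (0.87 ± 0.06 SE, adjusted p = 1.06e-05 by limma). CYP98A3, the hydroxylase that follows HCT, rose there too (0.80 ± 0.06 SE, adjusted p = 1.25e-05 by limma), and its call in CRY2oe (0.25 ± 0.06 SE, adjusted p = 0.0163 by limma) ended after rescaling and without CRY2oe replicate 2 or WT replicate 2. CAD4 and CYP98A3 were also called higher in UBP13oe, before and after rescaling, and CAD4 was called lower in cry2-1 after rescaling alone. All 10 genes of the branch were higher in ubp12ubp13 than in CRY2oe.

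Of the sinapate ester genes, UGT84A2, a sinapate glucosyltransferase, rose in the libraries labelled ubp12ubp13, at 21.7 and 22.6 FPKM, against 12.4 and 12.0 in WT (log2 change 0.81 ± 0.07 SE, adjusted p = 2.82e-05 by limma). SNG1, which makes sinapoylmalate, fell to 255 and 231 FPKM in those libraries, against 453 and 485 in WT (-0.95 ± 0.06 SE, adjusted p = 7.54e-06 by limma). Both groups were separate for each gene. SNG1 was also called lower in UBP13oe, before and after rescaling, and in cry2-1 after rescaling alone. REF1, an aldehyde dehydrogenase that makes sinapate and ferulate, changed by 0.39 ± 0.04 (SE, adjusted p = 0.000388 by limma) in UBP13oe and by -0.26 ± 0.04 (SE, adjusted p = 0.0011 by limma) in ubp12ubp13. Among 9 tested genes of further flavonoid decoration, 5 rose and 2 fell in ubp12ubp13, 2 rose in CRY2oe, 7 rose in UBP13oe and 3 rose and 1 fell in cry2-1. After rescaling these were 5 and 3, 2 and 0, 4 and 0, and 2 and 1. RHM1, which makes UDP-rhamnose, rose in ubp12ubp13 (0.68 ± 0.06 SE, adjusted p = 3.50e-05 by limma) and in CRY2oe (0.47 ± 0.06 SE, adjusted p = 0.00168 by limma). It was also called higher in UBP13oe and cry2-1, but not after rescaling. AT1G06000, a UDP-glycosyltransferase in RefSeq, was at 18.3 and 22.2 FPKM in ubp12ubp13, 13.4 and 12.9 in CRY2oe and 8.74 and 7.86 in WT. It rose by 1.19 ± 0.11 (SE, adjusted p = 5.16e-05 by limma) in ubp12ubp13 and by 0.61 ± 0.11 (SE, adjusted p = 0.00709 by limma) in CRY2oe. A rise of AT1G06000 in UBP13oe was called too, but not after rescaling. FLS3, a homologue of FLS1, rose in UBP13oe (0.91 ± 0.10 SE, adjusted p = 0.000407 by limma) and fell in ubp12ubp13 (-0.57 ± 0.10 SE, adjusted p = 0.00165 by limma). It was also called higher in cry2-1, before and after rescaling. Of 7 genes of the seed coat pathway, TTG2 alone passed the filter and was called higher in ubp12ubp13 (0.37 ± 0.12 SE, adjusted p = 0.0281 by limma), a call that ended after rescaling and without ubp12ubp13 replicate 2 or WT replicate 1. TTG2 was also called higher in cry2-1 (log2 change 0.35), but not after rescaling.

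Of 17 further regulators tested, 4 rose and 9 fell in the line labelled ubp12ubp13, 2 rose and 4 fell in CRY2oe, 4 rose and 6 fell in UBP13oe and 5 rose and 9 fell in cry2-1. Beside these, 34.6%, 16.5%, 35.2% and 31.7% of all genes were called higher in the same order, and 22.2%, 9.63%, 8.74% and 11.8% lower. In no line did the share of regulators that rose exceed that of all genes. After rescaling the counts of regulators were 4 and 9, 1 and 5, 1 and 9, and 3 and 11. The rescaled shares of all genes were 26.9% and 29.2%, 10.4% and 15.7%, 17.2% and 19.8%, and 16.1% and 20.7%. KFB20 and KFB50 encode Kelch F-box proteins that target PAL enzymes for degradation. KFB20 was at 117 and 117 FPKM in the libraries labelled ubp12ubp13, 329 and 314 in CRY2oe, 238 and 227 in UBP13oe, 311 and 307 in cry2-1 and 363 and 409 in WT. The libraries labelled ubp12ubp13 lay far below all others, and WT above all others. KFB20 changed by -1.71 ± 0.06 (SE, adjusted p = 4.88e-07 by limma) and KFB50 by -1.24 ± 0.05 (SE, adjusted p = 7.21e-07 by limma) in ubp12ubp13. Both were also called lower than WT in CRY2oe, UBP13oe and cry2-1, before and after rescaling. AT1G23390, a related Kelch F-box gene, changed by -1.27 ± 0.05 (SE, adjusted p = 3.39e-06 by limma) in cry2-1. It was also called lower in ubp12ubp13 and UBP13oe, before and after rescaling, and in CRY2oe after rescaling alone. HY5 and HYH, bZIP activators of flavonoid genes, are given here although they were picked after their values were seen. HY5 was at 29.3 and 35.4 FPKM in the libraries labelled ubp12ubp13, 34.0 and 32.9 in CRY2oe, 33.7 and 33.6 in UBP13oe, 20.9 and 20.3 in cry2-1 and 42.8 and 40.3 in WT. WT lay above all other libraries and cry2-1 below, and HY5 was called lower than WT in ubp12ubp13 (-0.36 ± 0.08 SE, adjusted p = 0.00528 by limma) and in cry2-1 (-0.98 ± 0.08 SE, adjusted p = 6.84e-05 by limma). Its lower levels in CRY2oe and UBP13oe were each called, and these calls ended without either replicate of each or WT replicate 1. HYH rose in ubp12ubp13 (0.44 ± 0.09 SE, adjusted p = 0.00305 by limma) and fell in cry2-1 (-0.78 ± 0.09 SE, adjusted p = 0.000281 by limma).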

How the data were processed

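The authors deposited 1 table a library with FPKM per gene, made per the submitters' processing notes with STAR and Cufflinks 2.1.1 on TAIR10. Directional poly(A) libraries were sequenced, per the labels' protocols. The annotation and counting options are not given in the sources used here. Of all entries, 15 at 10 loci carried a failed or overflow status and were treated as missing, none of them in the 35 genes. Genotypes followed the sample labels, and replicates are described as biological, so p-values measure the spread between these samples. limma 3.58.1 (R 4.3.3) was run with a variance trend on log2(FPKM + 1) of the 19957 genes at 1 FPKM or more in at least 2 libraries, with 1 mean per genotype over all 10 libraries (5 residual degrees of freedom). P-values were adjusted by Benjamini and Hochberg within each of 8 comparisons, and the procedure was tested on simulated data. Depth was estimated from the spacing of low FPKM of 2829 genes. Values in every library are given for genes called with an absolute log2 change of 1 or more in any comparison, and for the other lists up to 3 called genes with the smallest adjusted p are named. The 35 genes and all lists were chosen with earlier results of these data known. Motifs were searched in RefSeq TAIR10.1 sequence. Alternatives were another pseudocount, other filters, median-of-ratios rescaling (factors 0.930 to 1.07), a replicate block, a fit of the compared libraries alone, no variance trend, leaving out each library and, chosen after seeing the data, scaling to nuclear FPKM and the gene start of the files. Python 3.11.15, pandas 2.3.3, numpy 2.4.6, scipy 1.17.1 and matplotlib 3.10.9 were used.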

Additional observations from a re-analysis of the deposited data

How the results depend on the processing

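Of 201 changes of single genes that were called, repeated 3579 times in all under the alternatives, 3328 repeats kept the call, 251 kept the direction without the call and 0 reversed, and 148 changes kept the call in every repeat run. They were all calls of the 24 genes, those of MYB111 and GL3 in ubp12ubp13 included. Calls against WT of the named list genes and of HY5 and HYH were added. The list genes were named for their small adjusted p, so this tally does not measure how well calls hold in general. After median-of-ratios rescaling, 4 of the 24 genes were called higher in cry2-1 than in WT and 4 lower in CRY2oe than in WT. With only the libraries compared in the fit, 4 were called higher in cry2-1, 0 lower in CRY2oe and 1 lower in UBP13oe than in WT, and 2194 of all genes were called in CRY2oe. With no filter, 1 was lower in CRY2oe than in WT, 4 were lower in ubp12ubp13 than in CRY2oe, and 0 were lower in UBP13oe than in cry2-1. With 1 library left out at a time, the genes called lower ranged between 0 and 4 in CRY2oe against WT, 1 and 3 in UBP13oe against WT, 0 and 1 in ubp12ubp13 against UBP13oe, 2 and 7 in ubp12ubp13 against CRY2oe, and 0 and 1 in UBP13oe against cry2-1. Those called higher in UBP13oe against WT ranged between 6 and 11. All genes called ranged between 2152 and 5104 in CRY2oe against WT, 5613 and 8805 in UBP13oe against WT, and 3442 and 6146 in UBP13oe against cry2-1. A left-out library leaves 1 sample in its group, which is assumed to vary like the others. Samples with the same replicate number did not deviate together, with correlations of -0.088 to 0.146 and 1 of 10 pairs of genotypes above 0.1. With the replicate number as a block, 1 of the 24 genes was called lower in ubp12ubp13 than in UBP13oe. The cause of these shifts was not tested. For the 11 genes below 1 FPKM, values near 3 fragments limit what could be resolved.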
